A study of Mus musculus with 34 samples.

Results

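Late catagen was compared with full anagen in wild-type mouse hair follicle stem cells (HFSCs), through 8 of the 34 ATAC-seq libraries of the series. The members were chosen by their labels: 2 libraries of full anagen (AnaVI) and 6 libraries of late catagen (CatVII), all sorted in vivo from skin and all labelled wild type. The study asked how HFSCs take up dying neighbours as the hair follicle regresses, and ATAC-seq, in which a transposase cuts and tags open DNA, was its readout of chromatin accessibility. For each library the authors deposited a list of peaks, that is, stretches where tagged fragments pile up above the local background, with the fold enrichment and the −log10 p at the summit. No treatment was named for these 8 libraries, and their labels give no strain, sex or age. The stored peak names carry the tag P33 for AnaVI and P37 for CatVII, with the tag Phago for CatVII replicates 1 to 3 and NonPhago for replicates 4 to 6. The numbers 1 to 3 repeat across both tags, so n may count samples of fewer mice, and every p-value reflects only the spread among these libraries, which may be technical. HFSCs were isolated by the study as CD34-high, Itga6-positive cells free of Sca1 and of lineage markers. Another 4 late catagen libraries, labelled Rxra WT (the controls of a conditional Rxra deletion), took no part in choosing any region. They served as a second set of CatVII samples. By the study's legend on sorting, these mice were Rxra+/+ and carried Sox9-creER, a tamoxifen-inducible Cre, and the R26-YFP reporter. Their HFSCs were sorted on YFP and Itga6 in place of CD34. The study's general methods instead list as controls Cre-negative mice and Rxra fl/+ mice with Cre, so the exact genotype is not settled. By those methods all mice received tamoxifen. The Rxra WT libraries thus differ from the CatVII libraries in genotype, treatment and gate.

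HFSCs rest in the bulge, the outer layer of the upper follicle, and are kept there by transcription factors such as Lhx2, Sox9, Tcf7l1 and Nfatc1. In full anagen the hair shaft is being made below the bulge by cells that descend from HFSCs, while in catagen the lower follicle dies back by apoptosis and shortens toward the bulge. Clearance of apoptotic cells runs through bridging proteins and receptors such as Mfge8, Axl and Mertk, actin remodelling at the phagocytic cup, maturation of the phagosome and digestion in the lysosome, and the nuclear receptors for retinoids and oxidized lipids can act on genes of each step.

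Libraries differed in depth and in fragment length, and fragment length differed with the hair cycle stage. The shortest called peak of a library, which the peak caller sets to the mean fragment length, was 58 bp in AnaVI 1, 89 bp in AnaVI 2 and between 126 and 150 bp in the 6 CatVII libraries (exact permutation test, two-sided p = 0.0357, adjusted p = 0.101 over 17 measures). Fragment length and hair cycle stage therefore cannot be told apart among these 8 libraries. Of the Rxra WT libraries, replicates 1 and 4 had short fragments as well, 70 and 84 bp, and replicates 2 and 3 had 121 and 138 bp. Depth, estimated from the deposited scores, was 2280000 and 9330000 fragments in AnaVI and 3970000 to 34500000 in CatVII. Called peaks ran from 8311 (CatVII 3) to 52455 (AnaVI 2). To keep depth from setting the length of a list, the 8223 peaks of lowest p were taken from each library, which is the length of the shortest list.

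Sequences at the summits showed the difference that the results turn on. The first pair below are regions with a listed peak in both AnaVI libraries and in no CatVII library, and the second pair are regions listed in all 6 CatVII libraries and in no AnaVI library. All 4 lie outside promoters and are named for the nearest protein-coding gene. Capitals mark TAATTA, the core bound by LIM homeodomain factors such as Lhx2 (a letter run that reads the same on both strands), or GGGCGG, the GC box bound by KLF and SP factors, which reads CCGCCC on the opposite strand. Each run is 200 bases of the plus strand of GRCm39 (mm39) around the summit. The sites are chr1:50809636-50809835 (Tmeff2, intergenic), chr11:102504418-102504617 (Fzd2, intergenic), chr15:68235065-68235264 (Zfat, intergenic) and chr2:18061615-18061814 (Mllt10, intronic).
Tmeff2, anagen: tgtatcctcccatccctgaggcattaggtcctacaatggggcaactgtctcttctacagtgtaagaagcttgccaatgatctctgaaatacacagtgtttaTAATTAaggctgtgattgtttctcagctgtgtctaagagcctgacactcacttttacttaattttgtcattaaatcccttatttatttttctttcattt
Fzd2, anagen: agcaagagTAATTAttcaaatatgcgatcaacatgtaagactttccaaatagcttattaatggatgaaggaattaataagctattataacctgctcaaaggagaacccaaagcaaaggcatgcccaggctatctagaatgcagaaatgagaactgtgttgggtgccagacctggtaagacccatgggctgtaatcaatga
Zfat, catagen: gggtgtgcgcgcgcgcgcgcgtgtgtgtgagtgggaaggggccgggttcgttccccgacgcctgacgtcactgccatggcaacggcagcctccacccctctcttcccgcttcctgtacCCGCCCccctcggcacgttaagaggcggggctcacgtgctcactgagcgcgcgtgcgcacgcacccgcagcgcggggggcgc
Mllt10, catagen: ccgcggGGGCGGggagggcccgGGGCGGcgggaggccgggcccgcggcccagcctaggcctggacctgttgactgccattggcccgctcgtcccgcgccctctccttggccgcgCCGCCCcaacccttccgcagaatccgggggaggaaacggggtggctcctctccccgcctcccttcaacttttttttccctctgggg
The GC content of the anagen pair was 37.5% and 39.5%, and that of the catagen pair 73.0% and 74.0%. These 4 were picked because they hold the motifs, so they illustrate the letters and support nothing by themselves.

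Peaks of full anagen lay less often at promoters than those of late catagen. A promoter here is within 1000 bp of an annotated start of a protein-coding gene. Of the 8223 listed peaks, 36.3% and 45.3% lay at promoters in AnaVI 1 and 2. In CatVII 1 to 6 the shares were 58.2%, 67.2%, 51.5%, 63.9%, 61.1% and 56.2%. Every CatVII library was above both AnaVI libraries, with means of 59.7% ± 5.63 (SD, n = 6) and 40.8% ± 6.42 (SD, n = 2), a difference of 18.9 percentage points (exact permutation test over libraries, two-sided p = 0.0357, the smallest that 2 against 6 can give; adjusted p = 0.101 over 17 measures). Among all called peaks, whatever their number, the groups overlapped (31.7% and 24.3% against 26.2% to 51.5%, exact permutation p = 0.107). Genes with a listed peak at the promoter numbered 2844 and 3649 in AnaVI and 4035 to 5441 in CatVII.

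The shares at promoters can be read beside depth and fragment length. AnaVI 2, at 9330000 fragments, had a promoter share of 45.3%, and the CatVII libraries nearest to it in depth, CatVII 3 with 11100000, CatVII 5 with 7030000 and CatVII 6 with 3970000, had 51.5%, 61.1% and 56.2%. The short-fragment Rxra WT libraries 1 and 4 had promoter shares of 61.6% and 53.9%, above both AnaVI libraries, and the other Rxra WT libraries had 66.6% and 60.9%. AnaVI 1 was shallower than every CatVII library. The Rxra WT comparison uses the same 2 AnaVI libraries as its reference, and the parts of depth and fragment length were not tested.

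**Figure D1:**
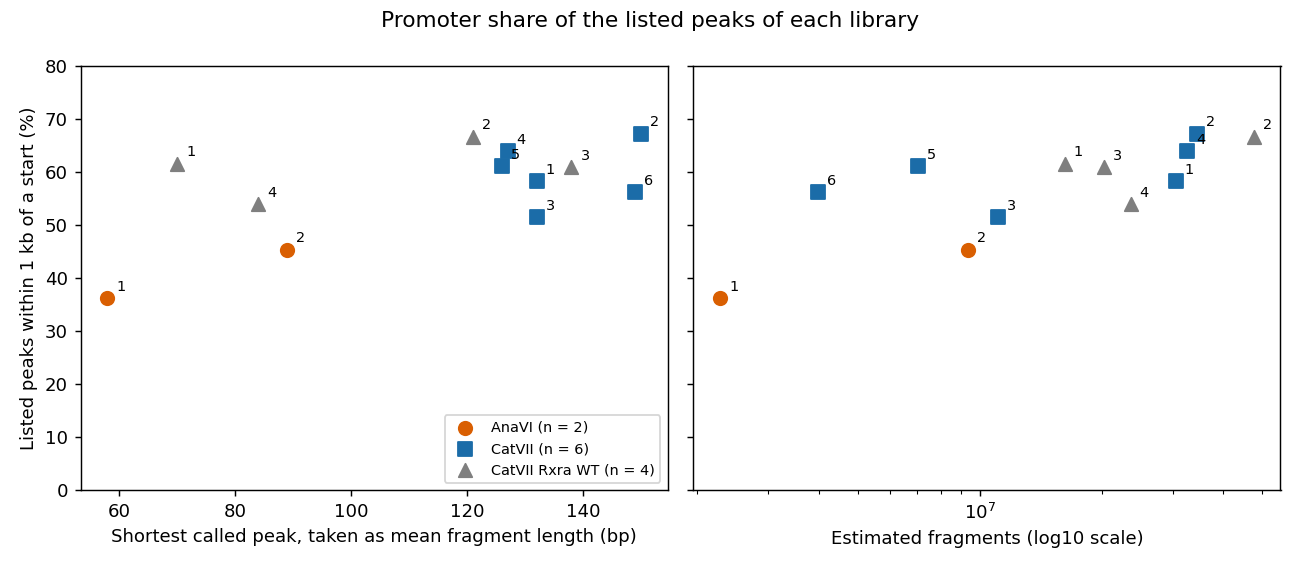
Percent of the 8223 listed peaks of each library within 1 kb of a protein-coding start (vertical axis) against the shortest called peak in bp (left) and the estimated number of fragments on a log10 scale (right), each point a library with its replicate number. All 6 CatVII and all 4 Rxra WT libraries sit above the 2 AnaVI libraries, which are at 36.3% and 45.3%. AnaVI 1 is shallower than every CatVII library (right). Beside AnaVI, only Rxra WT 1 and 4 have short fragments (left), and they differ in genotype, treatment and gate.

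Peaks at middle distances took a larger share of the anagen lists than of the catagen lists. Peaks 1 to 10 kb from a start took 13.1% and 11.8% of the AnaVI lists and 6.92% to 9.83% of the CatVII lists, and peaks 10 to 50 kb away took 24.1% and 21.5% against 13.2% to 17.3% (exact permutation p = 0.0357 for each, adjusted p = 0.101). Beyond 50 kb the groups overlapped, at 26.5% and 21.3% against 11.8% to 22.7% (exact permutation p = 0.107). Among the peaks outside promoters the median distance to a start was 36013 bp in AnaVI 1, 32717 bp in AnaVI 2 and between 30276 and 47367 bp in CatVII, so the groups overlapped. Mean GC content around the summits outside promoters was 47.5% and 48.6% in AnaVI and 48.2% to 52.1% in CatVII, a difference of 2.27 percentage points with overlapping groups (exact permutation p = 0.143). At promoters, GC content was 60.8% and 61.0% in AnaVI and 64.7% to 65.3% in CatVII (exact permutation p = 0.0357, adjusted p = 0.101). The Rxra WT libraries, also of late catagen, ran from 60.8% to 64.5% there, with 64.5% and 60.8% in the short-fragment replicates 1 and 4 and 64.0% and 61.8% in replicates 2 and 3, so replicate 4 was at the AnaVI level.

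Motif content outside promoters separated the groups for the letters of LIM homeodomain factors. TAATTA stood within the 200 bases around the summit in 11.5% and 12.8% of the AnaVI peaks outside promoters. In CatVII 1 to 6 it stood in 2.47%, 5.59%, 4.36%, 3.0%, 5.19% and 5.66%. The AnaVI mean was 2.77-fold the CatVII mean, a difference of −7.75 percentage points (CatVII minus AnaVI), and no CatVII library came near either AnaVI library. In the Rxra WT libraries the share was 5.57%, 4.34%, 6.03% and 5.25%, inside or just above the range of CatVII, and replicates 1 and 4 of short fragments did not stand nearer to AnaVI. Lhx2, a LIM homeodomain factor needed to keep HFSCs in the bulge, is the best known reader of such letters in these cells, and the letters do not tell which factor bound. TAATTA holds only A and T, and the part of the difference in GC content in its shares was not tested.

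For TAATTA, the exact permutation p was 0.0357, the smallest possible, and 0.298 after adjustment over 25 motifs. In all, 7 of the 25 motifs (28%) had groups that did not overlap, 4 with a higher mean in AnaVI and 3 in CatVII. Among those 4 is the DR2 direct repeat described below, found in only 4 and 3 AnaVI peaks, too few to compare. None of the 25 passed an adjusted p of 0.05 in this exact permutation test, and 3 had an unadjusted p of 0.0357. With so few libraries the test cannot pass the adjustment for a single motif. The motifs were searched on both strands, and several share letters or GC content.

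C/EBP letters (TTGCNNAA), read by factors of epithelial differentiation, were in 12.2% and 11.8% of AnaVI peaks and in 8.40% to 10.9% of CatVII peaks, a narrow gap that the Rxra WT libraries bridged (9.22% to 12.6%). CTCF letters (CNAGNGGGC), of the insulator protein, were in 4.33% and 4.07% against 2.23% to 3.84% (exact permutation p = 0.0714), and in 3.90% to 4.71% in Rxra WT. Thus for both of these motifs the second set of late catagen libraries did not stand apart from AnaVI.

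GC box letters (GGGCGG) lay the other way. Outside promoters they were in 7.04% and 8.50% of AnaVI peaks and 8.97% to 15.8% of CatVII peaks, with 11.7% to 16.6% in Rxra WT (exact permutation p = 0.107). At promoters, where these letters are common, they were in 57.2% and 58.4% of AnaVI peaks and 59.6% to 68.3% of CatVII peaks. ETS letters (CCGGAAG) outside promoters were in 1.22% and 1.36% against 1.40% to 1.94%, and NF-kB letters (GGGANTTCC) in 0.668% of both against 0.814% to 1.47%. All 3 are letters rich in G and C, and mean GC content in the same peaks was 2.27 points higher in CatVII with overlapping groups, a difference whose part in these shares was not tested.

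Several motifs of HFSC and stress factors overlapped between the groups. SOX letters (ACAANG) were in 39.2% and 41.2% of AnaVI peaks and 31.6% to 40.4% of CatVII peaks. AP-1 letters (TGANTCA), read by Fos and Jun, were in 22.9% and 26.4% against 16.6% to 36.3%, so that the CatVII libraries alone spanned more than the difference between groups. AGGTCA, the single arm that retinoid and lipid nuclear receptors bind, was in 9.65% and 10.5% of AnaVI peaks and 8.17% to 11.8% of CatVII peaks (exact permutation p = 0.857, difference −0.25 percentage points). Complete direct repeats of those letters were rare. The DR1 repeat was in 4 and 0 AnaVI peaks and in 0 to 4 CatVII peaks, and the DR5 repeat, bound by RAR with RXR, in 1 and 4 against 0 to 4. The DR2 repeat was in 4 of 5241 and 3 of 4494 AnaVI peaks and in 0 to 2 peaks of each CatVII library, numbers too small to compare.

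**Figure D2:**
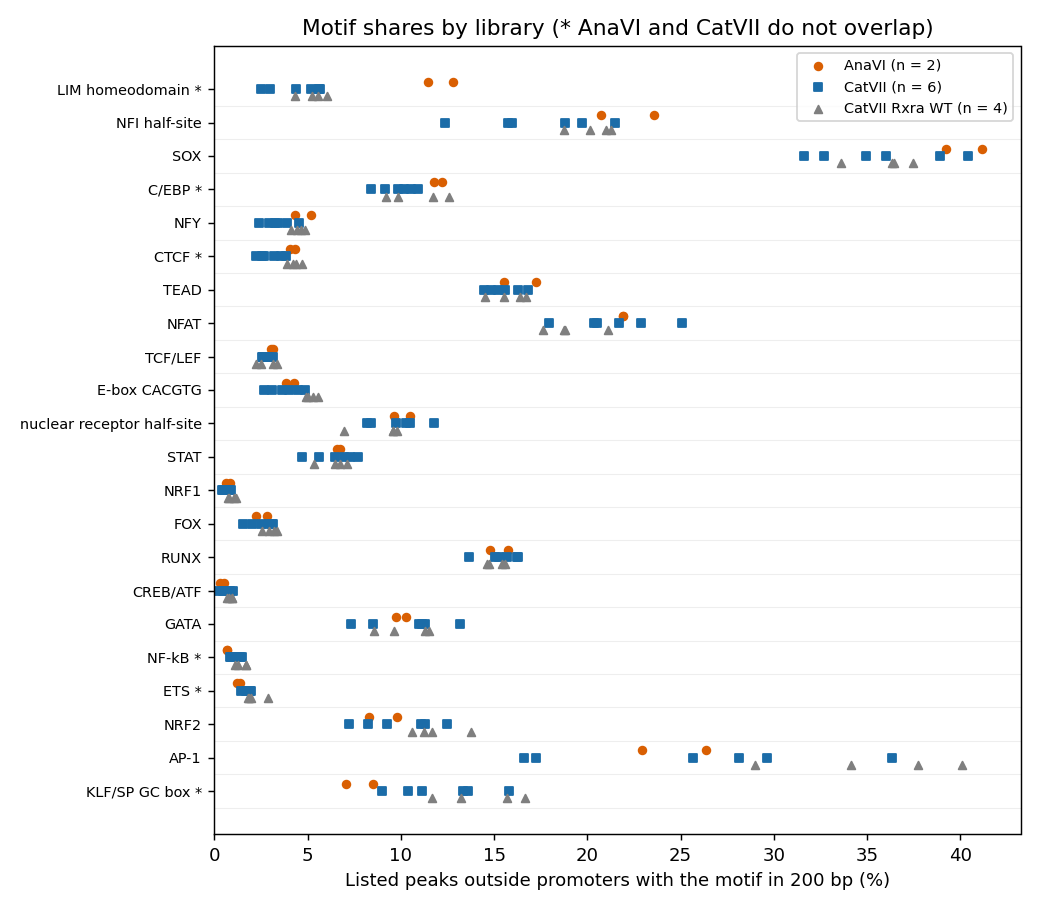
Percent of listed peaks outside promoters (horizontal axis) with each motif's letters in the 200 bp around the summit, for 22 motifs (the rare direct repeats are left out), each point a library of AnaVI, CatVII or Rxra WT and a star marking motifs whose AnaVI and CatVII libraries do not overlap. TAATTA (LIM homeodomain) is at 11.5% and 12.8% in AnaVI and at most 5.66% in CatVII, while SOX, AP-1 and the nuclear receptor letters overlap.

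Presence of a peak was then compared region by region. Overlapping peaks of the 8 lists were merged into 22963 regions, of which 12908 had a listed peak in at least 2 libraries and were tested. A catagen-specific region was one that every CatVII library listed and no AnaVI library listed, and an anagen-specific region the converse. Of the 12908 regions, 635 (4.92%) were catagen-specific and 1233 (9.55%) were anagen-specific, while 1142 (8.85%) had a peak in all 8 libraries. The demand on the 2 sides is unequal, since agreement of 2 libraries is easier to meet than of 6, and the order of the counts turned when only replicates 1 and 2 of each group were used, with 1757 catagen-specific and 1577 anagen-specific regions. Fisher's exact test of presence gave p = 0.0357 for each of these 1868 regions and a lowest adjusted p of 0.247, so no single region passed and the classes are a description.

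The classes differed in place. Of the catagen-specific regions, 485 of 635 (76.4%) lay at promoters, against 129 of 1233 anagen-specific regions (10.5%) and 55.6% of the other tested regions. Median width was 1069 bp for catagen-specific regions and 349 bp for anagen-specific regions, beside 738 bp for the others. Outside promoters, the median distance to a start was alike, 42665 bp for catagen-specific and 42800 bp for anagen-specific regions. The anagen-specific regions outside promoters lay in introns in 40.7% and between genes in 57.2%, and the catagen-specific ones in 37.3% and 60.7%. TAATTA stood in 18.6% of the anagen-specific regions outside promoters, 6.67% of the catagen-specific ones and 4.92% of the others, and GGGCGG in 4.35%, 17.3% and 11.2%. SOX letters were in 47.7%, 31.3% and 37.5%. These shares come from the peaks that defined the classes and restate the difference between the lists at the level of regions.

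Absence from a list did not mean that no peak was called. With every called peak counted, 95.4% of the catagen-specific regions had a peak in AnaVI 2 and 21.3% in AnaVI 1. Likewise, 84.8% of the anagen-specific regions had a peak in CatVII 2, the deepest of its group, 28.2% in CatVII 4 and 4.87% in CatVII 6, and 0% in CatVII 3, whose list holds little more than the listed peaks. The classes thus describe which sites ranked among the 8223 strongest of a library, not sites open at one stage and closed at the other.

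The Rxra WT libraries gave a check on samples that did not define the classes, against the same 2 AnaVI libraries. Among their own 8223 listed peaks, Rxra WT 1 to 4 had a peak in 57.8%, 79.2%, 61.1% and 40.3% of the catagen-specific regions. They had a peak in 20.8%, 11.0%, 18.7% and 24.3% of the anagen-specific regions, and in 51.8%, 58.8%, 55.8% and 51.8% of the other tested regions. In each of the 4 libraries the anagen-specific regions were listed least, but the classes differ in promoter content. At promoters, Rxra WT 1 to 4 listed 48.8%, 41.9%, 50.4% and 58.9% of anagen-specific regions. They listed 61.9%, 84.7%, 62.1% and 36.9% of catagen-specific promoters and 65.0%, 73.2%, 66.4% and 58.9% of the others. Outside promoters, they listed 7.43% to 20.3% of anagen-specific, 44.7% to 61.3% of catagen-specific and 35.3% to 42.8% of other regions. In Rxra WT 4, catagen-specific regions were listed less often than the other regions. None of the 4 libraries listed 776 of the 1233 anagen-specific regions (62.9%), 54 of the 635 catagen-specific regions (8.50%) and 2699 of the other regions (24.4%). The 34 anagen-specific regions narrower than 150 bp split by fragment length: 38.2% and 47.1% of them were listed in the short-fragment Rxra WT libraries 1 and 4, and 2.94% and 5.88% in libraries 2 and 3. For the other 1199 anagen-specific regions the shares were 20.3% and 23.7% in libraries 1 and 4 and 11.3% and 19.1% in libraries 2 and 3.

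**Figure D3:**
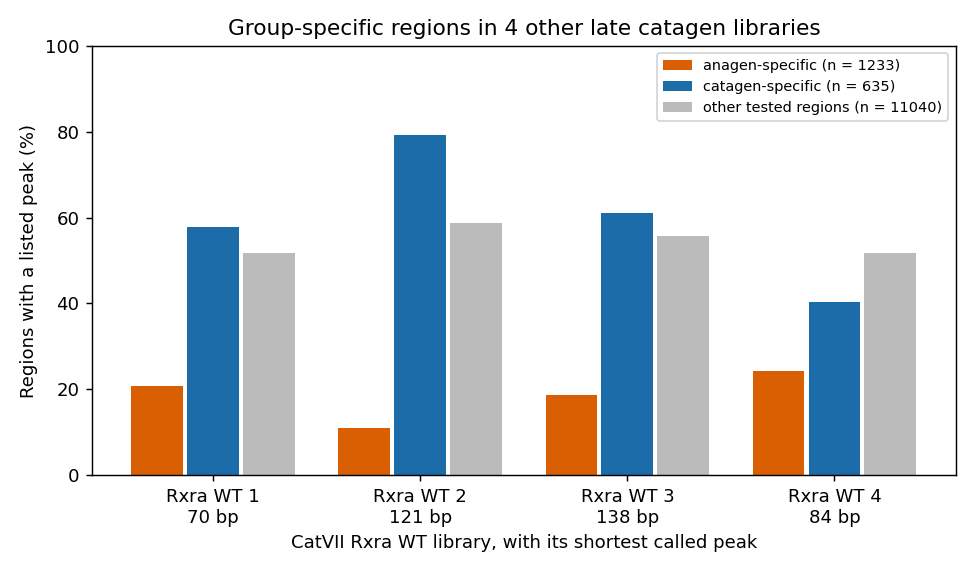
Percent of anagen-specific, catagen-specific and other tested regions with a listed peak in each of the 4 late catagen Rxra WT libraries (horizontal axis, with the shortest called peak in bp). Anagen-specific regions are at 11.0% to 24.3% in every library, catagen-specific regions at 40.3% to 79.2%, with promoters and other places pooled.

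The best-ranked catagen-specific promoters belonged to genes of several functions. Regions were ordered by their mean rank in the lists of the group, a rank of 1 being the lowest p. The promoter of Ripk2, a kinase that relays signals of innate immune receptors and of cell death, ranked at 401, 186, 384, 255, 755 and 222 in CatVII 1 to 6 (chr4:16163075-16164373). It was listed in 3 of 4 Rxra WT libraries, and in AnaVI a peak was called there in 1 library, below the listed ranks. Birc2, an inhibitor of apoptosis that tags Ripk proteins with ubiquitin, ranked at 746, 441, 473, 504, 1547 and 824 (chr9:7836462-7837452). Both promoters thus stood within the first 1547 ranks of every CatVII library.

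Other catagen-specific promoters near the top were those of Pkn2, a protein kinase, Ets1, a transcription factor, Wwp1, a ubiquitin ligase, Exoc5, a subunit of the exocyst that tethers vesicles, Fbxl4, a mitochondrial F-box protein, Ascc3, a helicase, Zfp983, a zinc finger protein, and D030056L22Rik. Mean ranks of these 8 ran from 469.2 (Pkn2) to 971.2 (Ascc3). Of the 10, Ets1, Wwp1, Exoc5, Zfp983, Ascc3 and D030056L22Rik were listed in all 4 Rxra WT libraries, and Fbxl4 in 1 of 4. In all 10, at least 1 AnaVI library had a called peak at the site.

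Outside promoters, the best-ranked catagen-specific region lay 64285 bp from Fam171a1 (chr2:3050025-3051743, intergenic), with ranks of 155, 724, 131, 239, 1179 and 166. Regions near Pnrc1, a coactivator of nuclear receptors (13193 bp away, intronic), and near Ifrd1, a regulator of transcription in differentiation (4034 bp, intronic), held AP-1 letters and were listed in 3 and 4 of the Rxra WT libraries. Regions near Asmt, 2010315B03Rik, Rps6ka4, Spaca6, Zfat, Dlgap2 and Mllt10 made up the rest of the 10. The ranks of several were uneven. The region near Rps6ka4 ranked at 100 in CatVII 1 and at 3781 in CatVII 6. The regions near Spaca6, Zfat and Mllt10 held GGGCGG, as the sequences of Zfat and Mllt10 show.

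Among anagen-specific promoters, the best ranked was that of Prr13, a small proline-rich protein, at 211 in AnaVI 1 and 189 in AnaVI 2 (chr15:102367407-102367672), and it held TAATTA. It was listed in all 4 Rxra WT libraries, and so were the anagen-specific promoters of Phf12, Cdc23, Med24, Tnfrsf22 and L3mbtl2. Peaks at Prr13 were called, below the listed ranks, in 4 of the 6 CatVII libraries. Psmb6, a proteasome subunit, and Gadd45b, a stress-induced regulator of growth, were listed in 3 and 2 of 4. Only Bmf and Susd6 of these 10 were listed in none. Bmf, a BH3-only protein that promotes apoptosis, ranked at 1301 and 2068, and Susd6, a target of p53, at 1748 and 1811. At the remaining 8 promoters, 2 to 4 of the Rxra WT libraries had a listed peak although no CatVII library did.

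The 3 best-ranked anagen-specific regions outside promoters were very narrow. They lay 35243 bp from Pak3 (ranks 15 and 11, 106 bp wide), 23851 bp from Elp6 (ranks 86 and 69, 115 bp) and 789220 bp from Ddx18 (ranks 153 and 93, 105 bp). Each was listed in Rxra WT 1 and 4, the short-fragment libraries, and not in 2 and 3, and no peak at all was called there in the 6 CatVII libraries. The filter for repeated sequence counts copies in the assembled genome only, so a repeat missing from the assembly would pass it. Whether these 3 narrow sites are such repeats was not tested. The whole Pak3 region is printed because it is the best-ranked anagen-specific site that passed this filter. It lies at chrX:142266001-142266106 in GRCm39, plus strand, with a GC content of 35.8%, and it holds neither TAATTA nor GGGCGG.
Pak3, anagen: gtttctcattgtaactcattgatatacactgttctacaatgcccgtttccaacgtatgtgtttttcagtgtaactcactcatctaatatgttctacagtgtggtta

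The next 7 regions were 356 to 597 bp wide. They lay near Aqp4, a water channel, Lmx1b, a LIM homeodomain factor itself, Mmgt2, Slc38a4, an amino acid transporter, Tmeff2, Fzd2, a WNT receptor, and Papln. The Lmx1b region (chr2:33506418-33506863) is in an intron, 23947 bp from the start, and ranked at 364 and 520. The Tmeff2 region ranked at 455 and 612 and was listed in none of the Rxra WT libraries, as was the Aqp4 region. The Fzd2 region ranked at 366 and 707 and was listed in Rxra WT 1 and 4. With all called peaks counted, each of these 7 had a peak in 1 or 2 CatVII libraries and in all 4 Rxra WT libraries.

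Gene groups were described through gene windows, from 50 kb upstream of a gene to 5 kb downstream. Of 21738 protein-coding genes, 12727 had a tested region in the window. Among these, 961 windows (7.55%) held a catagen-specific region and 1392 (10.9%) an anagen-specific region, with 78 holding both. At promoters the order turned: of 7572 genes with a tested promoter region, 532 (7.03%) were catagen-specific and 117 (1.55%) anagen-specific, and 1145 had a peak in all 8 libraries (15.1%). The median window held 1 tested region, and the windows of the lists 1 to 2. Neighbouring genes can share a region, and a list's count is to be read against these shares of all windows.

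Of 16 windows of bulge surface and niche genes, 6 held an anagen-specific region (37.5%) and 1 a catagen-specific region, beside 10.9% and 7.55% of all windows. Of 20 windows of HFSC transcription factors, 6 held an anagen-specific region (30%) and 0 a catagen-specific region. Shares as high were found in a list of other cells, since 2 of 6 windows of endothelial and muscle markers held an anagen-specific region (33.3%). Dkk3, a secreted bulge protein, had an intronic region at ranks 1873 and 623 (chr7:111743452-111743928), listed in no Rxra WT library. Lgr5, a WNT co-receptor of bulge and hair germ cells, had 2 such regions in its window, the better at ranks 6324 and 2644. Itga6, the integrin used to sort these cells, had one 48135 bp from its start, and Grem1, a BMP antagonist, had one that lies in an intron of Scg5 and holds TAATTA. The promoter of Ltbp1, which binds latent TGF-beta, was anagen-specific at low ranks (7405 and 4600).

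Among the transcription factors, the intronic regions of Tcf7l2 (ranks 451 and 3984), Tcf7l1 (2969 and 2121) and Nfib (5282 and 1410) were anagen-specific. The first pair of genes encode partners of beta-catenin, and Nfib is expressed in HFSCs and keeps melanocyte stem cells beside them in check. Tcf7l1 and Tcf7l2 were listed in none of the Rxra WT libraries and Nfib in 1. Gli1, a hedgehog target and effector, had an anagen-specific region 905 bp from a start (ranks 6511 and 2451), listed in 3 of 4. The single catagen-specific region among bulge genes was the promoter of Pthlh, which encodes a hormone-related peptide secreted by follicle cells, at ranks of 3939 to 7240 in the 6 CatVII libraries. Lhx2 itself had no tested region in its window, and Sox9 and Nfatc1 had 1 each, of neither class.

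Of WNT and hedgehog genes, 4 of 16 windows were anagen-specific (25%, beside 10.9% of all windows) and 0 catagen-specific (7.55% of all windows). They were Hhip, a hedgehog-binding inhibitor, at ranks 4641 and 231, Wnt4, a ligand (2911 and 4113), Sostdc1, a WNT and BMP antagonist (1252 and 6698), and Lgr4, a co-receptor (4543 and 7201). The best of these ranks came from 1 library each, Hhip from AnaVI 2 and Sostdc1 from AnaVI 1. In BMP and TGF-beta signalling 1 of 20 windows was anagen-specific, that of Smad5, an intronic region at ranks 4587 and 3500. Cux1, of the hair lineage list, had the only class member there, an intronic region with TAATTA at ranks 669 and 1452.

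**Figure D4:**
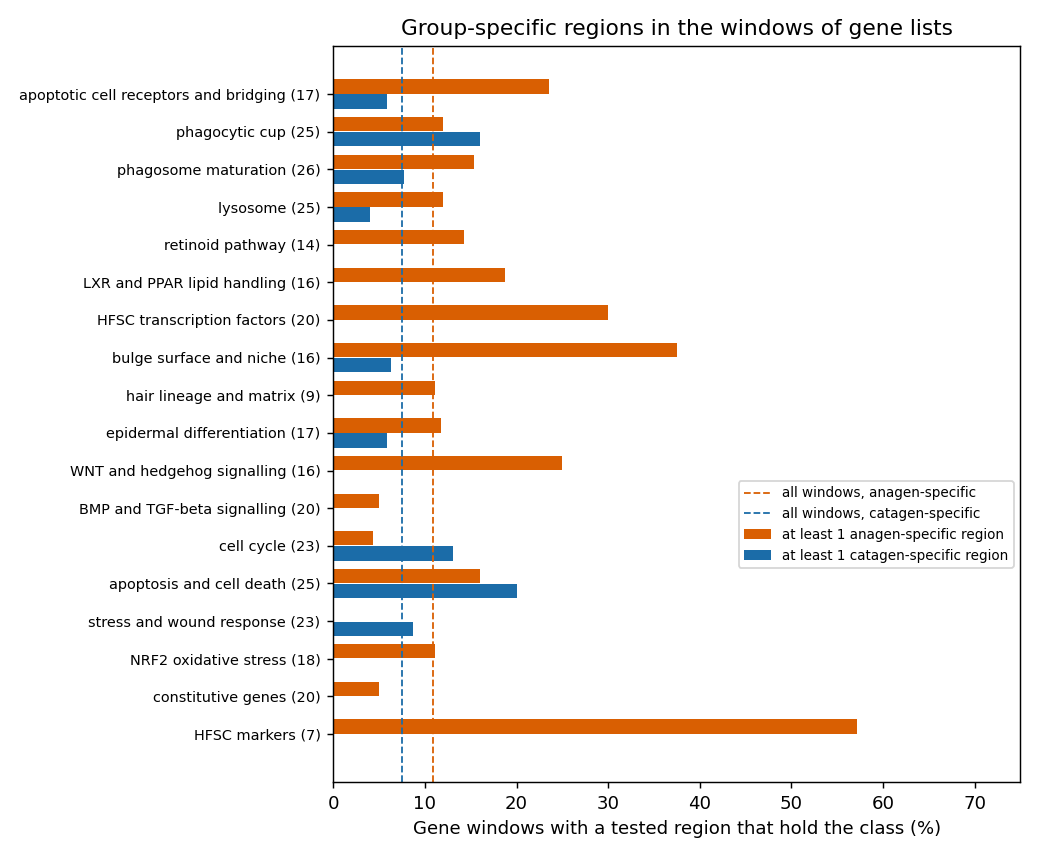
Percent of gene windows with a tested region that held an anagen-specific or a catagen-specific region, for each gene list (number of such windows in brackets), with the shares over all windows, 10.9% and 7.55%, as dashed lines. Bulge, HFSC factor and WNT lists have anagen bars of 25% to 37.5% and catagen bars of at most 6.25%.

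Genes of apoptotic cell clearance held regions of both classes. For receptors and bridging proteins, 4 of 17 windows were anagen-specific (23.5%) and 1 catagen-specific (5.88%), beside 10.9% and 7.55% of all windows. Mfge8, which bridges phosphatidylserine to integrins, had an anagen-specific region 609 bp from a start at ranks 1887 and 5206. Its promoter as a whole was of neither class. There, 2 AnaVI and 1 CatVII libraries listed a peak, and 3 CatVII libraries had a called peak. Mertk, a receptor of the TAM family, had 2 regions in its window, the better one in an intron at ranks 6209 and 1556. Lgals3, a galectin, had one at 6183 and 4579, and in the window of Axl, the other TAM receptor of this list with one, the region lay nearer to Cyp2s1 at low ranks of 8064 and 3094. In the Rxra WT libraries the Mertk region was listed in 3 of 4, Mfge8 in 2, and Lgals3 and Axl in 1 each.

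The catagen-specific region of this list was the promoter of Cd47, which encodes the signal that tells phagocytes to spare a cell. It ranked at 2039, 2326, 2050, 1447, 985 and 671 in CatVII 1 to 6 (chr16:49675253-49676460), and a peak below the listed ranks was called in 1 of the 2 AnaVI libraries. In Rxra WT it was listed in 2 of 4. Gas6, the ligand of the TAM receptors, and Tyro3 had no listed promoter peak in any of these 8 libraries. With all called peaks, Gas6 had a promoter peak in 1 AnaVI and 2 CatVII libraries and Tyro3 in 0 and 3. Lrp1, a corpse receptor, had a listed promoter peak in 1 AnaVI and 5 CatVII libraries. Listed promoter peaks were in 0 AnaVI and 5 CatVII libraries at Itgav, an integrin gene. They were in 0 and 4 at Thbs1 and in 0 and 2 at Pros1, both of bridging proteins. At Mertk they were in 1 and 0. None of these promoters was of either class.

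The phagocytic cup list had 4 catagen-specific windows of 25 (16%) and 3 anagen-specific ones (12%), beside 7.55% and 10.9% of all windows. Trio, a guanine nucleotide exchange factor for Rac that drives actin at the cup, had a catagen-specific promoter at ranks 3095, 1394, 4025, 2135, 2924 and 1029. Elmo3, an adaptor of the Dock exchange factors, had a catagen-specific promoter at ranks of 3325 to 7897 and an anagen-specific region 7939 bp away in E2f4, so both classes stood in 1 window. In the window of Crkl, an adaptor in the same pathway, the catagen-specific region lay at the start of Snap29. Dock2, an exchange factor best known in blood cells, had an intronic one that no Rxra WT library listed. Anagen-specific were intronic regions of Abl1, a tyrosine kinase (ranks 556 and 3917), and Pxn, an adhesion adaptor (5631 and 8048).

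The sequence at the summits of Trio and Mfge8 is printed since both act in clearance and held a region of opposite class within 1000 bp of a start. The Trio site, chr15:28026063-28026262 on the plus strand of GRCm39, has a GC content of 69.5% and holds GGGCGG in 3 places, in capitals. The Mfge8 site, chr7:78799334-78799533, has a GC content of 44.0% and holds neither GGGCGG nor TAATTA.
Trio, catagen: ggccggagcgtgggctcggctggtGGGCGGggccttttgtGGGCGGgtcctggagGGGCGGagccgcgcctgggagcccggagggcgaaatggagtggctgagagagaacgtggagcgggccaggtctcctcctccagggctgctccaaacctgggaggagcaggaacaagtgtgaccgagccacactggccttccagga
Mfge8, anagen: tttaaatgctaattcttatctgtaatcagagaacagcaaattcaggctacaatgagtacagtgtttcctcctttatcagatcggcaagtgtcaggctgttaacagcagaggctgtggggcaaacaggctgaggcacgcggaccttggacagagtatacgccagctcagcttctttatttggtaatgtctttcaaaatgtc

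Later steps of clearance stood near the shares of all windows. For phagosome maturation, 2 of 26 windows were catagen-specific (7.69%) and 4 anagen-specific (15.4%), and for the lysosome 1 of 25 (4%) and 3 of 25 (12%). Rab22a, an endosomal GTPase, had a catagen-specific promoter at ranks of 2520 to 6467 and an anagen-specific region at Vapb in the same window. The catagen-specific region in the window of Atg16l1, needed for LC3 at the phagosome, ranked at 96, 119, 126, 85, 132 and 842, but its sequence recurs elsewhere in the genome. Anagen-specific windows were those of Hgs, Plekhm1 and Atg7 for maturation, and, among those for the lysosome, of Mitf and Atp6v1h, a proton pump subunit. That of Lgmn, a lysosomal protease, was catagen-specific through a region 20629 bp from its start, nearer to Golga5.

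Of the retinoid pathway 0 of 14 windows held a catagen-specific region, and of the LXR and PPAR list 0 of 16, beside 7.55% of all windows. With so few windows, counts of 0 lie near that share. Anagen-specific were 2 of 14 (14.3%) and 3 of 16 (18.8%), beside 10.9% of all windows. Among the former was that of Rarb, a retinoic acid receptor (ranks 5235 and 5446, with TAATTA). The latter were those of Ppard, Angptl4 and Lpcat3. The Rarb region was listed in no Rxra WT library. The promoter of Rxra had a listed peak in both AnaVI libraries and in 2 of the 6 CatVII libraries, and a called peak in 5 of 6. The promoter of Nr1h2, encoding LXR-beta, was listed in 0 AnaVI and 1 CatVII library.

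Apoptosis genes had catagen-specific promoters. Over all genes, 7.55% of windows held a catagen-specific and 10.9% an anagen-specific region, and 7.03% of tested promoters were catagen-specific. In this list 5 of 25 windows held a catagen-specific region (20%), each at a promoter (5 of 20 tested promoters), and 4 an anagen-specific one (16%). Beside Ripk2 and Birc2, they were Apaf1, the scaffold of the apoptosome (ranks 1864, 1017, 3490, 1937, 1039 and 6226), Pmaip1, which encodes the BH3-only protein Noxa (2541 to 5064), and Fas, the death receptor (2789 to 8201). Apaf1 shares its promoter region with Ikbip and was listed in all 4 Rxra WT libraries, Pmaip1 in 2 and Fas in 1. Anagen-specific were the promoter of Bmf and regions in the windows of Ripk3, of the necroptosis pathway, Bcl2l1, which protects from apoptosis (2696 and 3147, listed in no Rxra WT library), and Bak1, which permeabilizes mitochondria (7994 and 7176).

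The cell cycle list had 3 of 23 catagen-specific windows (13%) and 1 anagen-specific one (4.35%), beside 7.55% and 10.9% of all windows. The promoter of Ccne1, cyclin E of the start of DNA synthesis, ranked at 1141, 280, 1528, 517, 3402 and 2418 and was listed in 3 of 4 Rxra WT libraries. The promoter of Cdkn2c, an inhibitor of Cdk4 and Cdk6, ranked at 2454 to 7557 and was listed in none. For Cdkn1b, the inhibitor p27, the region lay at Gpr19, and the anagen-specific one, for Aurkb of mitosis, at Ctc1. In stress and wound genes 2 of 23 windows were catagen-specific (8.70%, beside 7.55% of all windows) and 0 anagen-specific (10.9% of all windows). They were Jun, a component of AP-1, with a promoter region at ranks of 1393 to 7727 listed in all 4 Rxra WT libraries, and Egr1, an immediate early gene (2011 to 8033).

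The remaining lists held few regions, beside 7.55% catagen-specific and 10.9% anagen-specific of all windows. In epidermal differentiation 1 of 17 windows was catagen-specific (5.88%), that of Grhl1. Anagen-specific there were 2 (11.8%), those of Grhl3 and, at its promoter, Dsg1a. In the NRF2 list 2 of 18 windows were anagen-specific (11.1%) and 0 catagen-specific. They were those of Gclc, of glutathione synthesis, and Keap1, the NRF2 inhibitor. In the list of constitutive genes, 0 of 20 windows were catagen-specific and 1 was anagen-specific (5%), that of Rplp0 through the region in Pxn.

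Markers of HFSCs and of other cell types were read beside these groups. Of 12 HFSC markers, 7 had a tested region in the window. Of these 7, 4 held an anagen-specific region (57.1%, beside 10.9% of all windows) and 0 a catagen-specific one (7.55% of all windows). The 4 were the already described Dkk3, Tcf7l1, Lgr5 and Itga6. The marker windows held a median of 2 tested regions, against 1 over all windows. The promoter of Itga6 was listed in both AnaVI and in 4 of 6 CatVII libraries, that of Sox9 in 1 and 1, while those of Lhx2, Cd34 and Krt15, a bulge keratin, were listed in none of the 8. With all called peaks, promoter peaks of the 12 HFSC markers numbered 3 and 10 in AnaVI 1 and 2 and 1 to 12 in CatVII. Of 16 immune markers, 0 and 2 had a called promoter peak in AnaVI and 0 to 2 in CatVII. Of 12 fibroblast and dermal papilla markers the numbers were 1 and 4 against 0 to 4, of 12 endothelial and muscle markers 0 and 1 against 0 to 3, of 12 melanocyte markers 1 and 3 against 1 to 4, and of the interfollicular and sebaceous list 1 and 5 against 0 to 6. In every list the larger counts fell in the libraries with the most called peaks, AnaVI 2 and CatVII 2. Listed promoter peaks were 0 in all 8 libraries for immune and for endothelial and muscle markers. Group-specific regions in the windows of such markers were those of Mitf (melanocyte), Spi1 (immune), Tek and Tagln (endothelial and muscle) for anagen, and Acta2, through the promoter region of Fas, and Cidea for catagen. The part of other cells in the classes was not tested beyond these counts. In sorted bulk samples, fewer cells of a type and weaker signal per cell cannot be told apart.

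Sites called in every library allowed a comparison of strength. In 2369 regions all 8 libraries had a called peak, and 74.7% of these regions were promoters. The measure is the log2 fold enrichment at the summit, which the authors' peak caller gives over local background, minus the library's median over these regions. Those medians were 6.03-fold (CatVII 3) to 12.0-fold (CatVII 2). With limma and Benjamini-Hochberg adjustment, 36 regions were higher in CatVII (1.52%) and 28 lower (1.18%) at an adjusted p of 0.05. At an unadjusted p of 0.05 the limma counts were 232 higher and 238 lower. Of the 36 higher regions 20 lay outside promoters, and 12 of those 20 were of repeated sequence, while 21 of the 28 lower regions were promoters. Without AnaVI 1, limma called 7 higher and 0 lower.

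Of the 36 regions higher in late catagen, 16 were promoters, none of repeated sequence. At Cmtr2, a methyltransferase of the mRNA cap, the centred log2 enrichment was −0.39 and −0.30 in AnaVI and 0.80, 0.39, 0.52, 0.53, 0.47 and 0.73 in CatVII, a rise of 0.92 ± 0.20 (SE, limma adjusted p = 0.0253). At Idi1, of isoprenoid synthesis, the rise was 0.81 (limma adjusted p = 0.0318). At Birc2 the values were −0.52 and −0.48 in AnaVI and 0.04 to 0.45 in CatVII, a rise of 0.76 ± 0.20 (SE, limma adjusted p = 0.0424). The groups did not overlap at Cmtr2 or Birc2. The Rxra WT libraries had −0.58 to −0.20 at Birc2, near the AnaVI values, and −0.47 to 0.44 at Cmtr2. Mfap3l, Pcmtd1, Gk, Osgin2, Exoc5, Zfp983, Gm527, Adss2, Gm49342, Mospd2, Supt3, Mtrf1l and Slc35a5 made up the rest of the 16 promoters. Outside promoters, a region 28177 bp from Sos2, an exchange factor for Ras, rose by 1.34 ± 0.28 (SE, limma adjusted p = 0.0203) and was not of repeated sequence.

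Of the 28 regions lower in late catagen, 18 were promoters outside repeated sequence. At Mvd, of the mevalonate pathway, values were 0.51 and 0.28 in AnaVI and −0.68 to −0.33 in CatVII, and enrichment fell by 0.87 on the log2 scale (SE 0.20, limma adjusted p = 0.0255). Idi1 and Mvd, which act in the same pathway, thus moved in opposite directions. At Wbp1, values were 1.25 and 0.86 against −0.25 to 0.36, and enrichment fell by 1.02 (limma adjusted p = 0.0203). Abl1, from the phagocytic cup list, had 1.28 and 0.62 in AnaVI and 0.11, 0.26, −0.43, 0.09, 0.31 and −0.91 in CatVII, and its promoter fell by 1.04 (limma adjusted p = 0.0390). With quantile normalization the difference was as large (−1.05 on the log2 scale) but did not pass (limma adjusted p = 0.0974), nor did it with −log10 p in place of fold (limma adjusted p = 0.0537). Dgat1, of triglyceride synthesis, the histone genes H3c7 and H2ac19, Cbx5, a heterochromatin protein, Ganab, a glucosidase of the endoplasmic reticulum, and H2-T22, a class I molecule, were among the other promoters that fell. Histone genes and H2-T22 have near copies in the genome, so their reads may be shared. Outside promoters, enrichment fell at regions near Ccl21a, Ppp2r3a, Gata3, a factor of hair and epidermal fate, and Timp3, a protease inhibitor.

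Among the fixed lists, 1 of 5 shared promoter regions of the phagocytic cup list fell (Abl1) and 1 of 2 of the apoptosis list rose (Birc2), beside 16 risen and 21 fallen of 1769 over all shared promoters. No promoter region of the other lists passed the test. Outside promoters, the regions nearest to Gata3, of the hair lineage list, and Timp3, of the bulge list, fell by 0.77 and 0.76 on the log2 scale (limma adjusted p = 0.0463 for each). The median difference was 0.01 over all shared promoters, −0.11 for the 5 of the phagocytic cup, −0.02 for 7 of phagosome maturation, −0.36 for 7 of constitutive genes and −0.45 for 6 of the stress list. Centring promoters and other regions separately kept the direction of all 64 called regions, with 36 higher and 25 lower of them still called. With the 4 Rxra WT libraries in place of the 6 CatVII libraries and the same AnaVI libraries as reference, limma called 0 regions in either direction (342 at an unadjusted p of 0.05). The Rxra WT mean lay between the AnaVI and CatVII means in 32 of the 36 higher regions, 2 of which had no value in Rxra WT, and in 24 of the 28 lower ones.

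**Figure D5:**
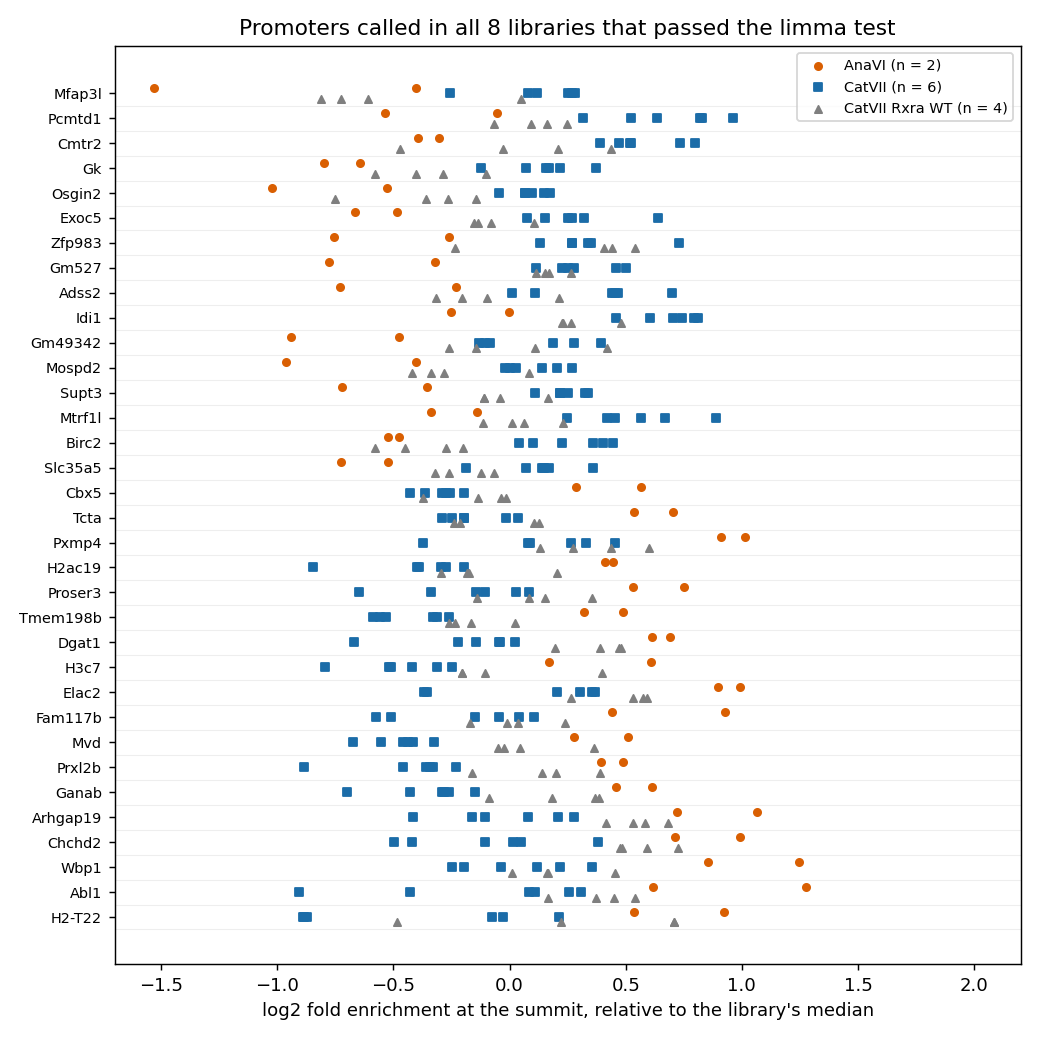
Log2 fold enrichment at the summit relative to the library's median (horizontal axis) for the 34 promoters outside repeated sequence that passed the limma test, with a point for each AnaVI, CatVII and Rxra WT library. AnaVI and CatVII points separate at Cmtr2, Birc2, Mvd and Wbp1, while many Rxra WT points lie between them.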

How the data were processed

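ATAC-seq was done by the authors on sorted HFSCs. Per the labels and the methods, reads were aligned to mm39 with BWA (0.7.18), duplicates were removed with SAMtools, and peaks were called per library with MACS3 (3.0.0) on paired fragments. The deposited peak lists give the fold enrichment over local background (a ratio), the −log10 p-value and −log10 q-value and the summit offset. No read counts were analysed, so presence and rank were the measures, and depth was estimated from fold and −log10 p, which together fix the pileup and the background. Peaks on the 19 autosomes, X and Y were ranked by p. Genes and starts are from GENCODE vM39 (GRCm39). Repeated sequence means that 25-base words of the region recur at 10 or more other places of the assembled genome, or that 10% or more of them are mitochondrial. The exact permutation tests, Fisher's exact test and limma (3.58.1, R 4.3.3) were run as described with the results, with Python 3.11.15 and scipy 1.17.1. The merging and calling of regions and the limma fit were tested on simulated data.

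The members and the gene lists were chosen with earlier results of these data known. Named were list genes with a group-specific promoter region or with one of the up to 4 best-ranked group-specific windows per list and direction, the 10 best-ranked regions of each class at and outside promoters (1 per nearest gene, outside repeated sequence), and the shared regions of lowest p. Genes named at no group-specific region (Lhx2, Sox9, Nfatc1, Gas6, Tyro3, Lrp1, Itgav, Thbs1, Pros1, Rxra, Nr1h2, Cd34, Krt15) and the further shared regions were chosen after their values were seen. Some list genes that meet the rule are not reported here. Alternatives were shorter lists, all called peaks, a −log10 q-value of at least 5, 100 bp windows, other scalings, a replicate block and leaving out each library.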

Additional observations from a re-analysis of the deposited data

Results flagged for a closer look

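In a test of the highest or lowest library against the rest of its group, 2 of 54 groups of values stood out, where chance gives about 1 in 20. Both are Rxra WT libraries of late catagen, and neither enters the AnaVI and CatVII values. The nuclear receptor motif AGGTCA was in 6.96% of peaks outside promoters in Rxra WT 1, where the nearest other library had 9.57%. The ETS motif CCGGAAG was in 2.88% in Rxra WT 2, where the nearest had 1.96%.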

How the results depend on the processing

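No difference changed its sign, but the order of counts did turn in places: catagen-specific over anagen-specific regions with the replicate block, and lower over higher shared regions with the block and without AnaVI 2 (35 higher, 69 lower). Of 171 alternative values, 92 planned and 14 added ones kept their direction and their side of the threshold or stayed within 1.5 times the reported count. Catagen-specific regions, 635 as reported, numbered 322 with lists of the shorter length, 178 with all called peaks, 52 at a −log10 q of at least 5 and 315 with 100 bp summit windows, and 674 to 1177 without 1 library (1177 without AnaVI 2). Anagen-specific regions, 1233 as reported, numbered 587 with shorter lists, 514 at the q minimum, and 1268 to 3877 without 1 library (2923 without AnaVI 1, 3877 without AnaVI 2). The difference in promoter share was 15.6 points with all called peaks (exact permutation p = 0.107), 17.1 at the q minimum (exact permutation p = 0.107) and 14.3 to 23.4 without 1 library, and leaving out an AnaVI library allows an exact permutation p of 0.143 at best. The GC difference, 2.27 points, had an exact permutation p of 0.0357 with all called peaks (1.66 points), 100 bp windows (2.55) and promoters included (5.79), and ran from 1.74 to 2.81 without 1 library. Motifs with separate groups numbered 14 with promoters included and 7 to 11 without 1 library (11 without AnaVI 1).

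Shared regions called by limma numbered 9 higher and 1 lower with array weights, 10 lower with quantile normalization and 12 lower with −log10 p. Without 1 library they ran from 7 to 42 higher and 0 to 69 lower. Without AnaVI 1 they were 7 and 0, and without AnaVI 2, 69 were lower. Without CatVII 1, 2, 3 and 4 the lower counts were 17, 13, 18 and 13, and without CatVII 1 and 4 the higher counts were 23 and 19. A lone AnaVI library is then assumed to vary like the CatVII libraries.

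The replicate numbers 1 and 2 are shared by the groups, and deviations of same-numbered libraries from their group means correlated at −0.03 and 0.32. With only 2 AnaVI libraries, their deviations mirror each other, so these values cannot tell whether same-numbered libraries were paired. With a replicate block over the shared numbers there were 1757 catagen-specific and 1577 anagen-specific regions, 13 motifs, and 28 higher and 54 lower shared regions. The promoter difference was 21.9 points (exact permutation p = 0.5, the smallest that 2 pairs allow).

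The following were chosen after seeing the data. With CatVII 1 to 3 (stored tag Phago) as the late catagen group there were 1122 catagen-specific regions, a promoter difference of 18.1 points (exact permutation p = 0.2), and 6 higher and 0 lower shared regions. With CatVII 4 to 6 (NonPhago) the values were 1194, 19.6 points (exact permutation p = 0.1, the smallest possible), 12 motifs, 2 and 0. With the 4 Rxra WT libraries the promoter difference was 19.9 points (exact permutation p = 0.0667, the smallest possible), with 11 motifs and 0 and 0 shared regions. With the short-fragment Rxra WT libraries 1 and 4 there were 996 catagen-specific regions, a promoter difference of 16.9 points (exact permutation p = 0.333), 15 motifs, and 0 and 0 shared regions. The cause of these changes was not tested. The reading of absence is limited by the number of called peaks, lowest in CatVII 3 (8311), which was not the shallowest library by estimated fragments.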
